A study of Homo sapiens with 9 samples.

Results

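The genes of the G2 phase and of mitosis are the cell's machinery for entering division, building the spindle and parting the chromosomes. They were described here as a set of 36 genes, from the cyclins to the kinetochore and the central spindle. Each gene was represented by the probe set whose annotated symbol was that gene alone and whose mean log2 value over all arrays was highest. The annotation paired 61 probe sets with these genes, among 11963 genes with at least 1 such probe set. All 36 genes were found, and none of their representative probe sets read below 87.8 on any array.

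Per the labels, RNA came from IMR-32, a human neuroblastoma cell line whose genome carries amplified MYCN. The label is in doubt for the WT arrays, which lack a high MYCN level, as the marker values below show. Choline acetyltransferase (ChAT) makes acetylcholine, and the larger of its human forms can enter the nucleus. There were 3 groups of 3 arrays each. Per the labels, 69CHAT cells carry stable expression of a ChAT of 69 kDa, 82CHAT cells that of 82 kDa, and WT stands for wild-type cells. No cells with an empty vector were among the samples used here. No agent, time point, promoter, vector or number of clones is given in the sources used here, so the ChAT form and the line that carries it cannot be told apart. Replicates are named biological in the series design.

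In a dividing cell CDK1 with cyclin A and then cyclin B drives entry into mitosis, and the kinases PLK1 and the Auroras set up the spindle. The checkpoint proteins hold the anaphase-promoting complex until the kinetochores are attached. Most of these genes are transcribed late in the cell cycle under FOXM1, B-MYB and the MuvB complex, which acts through a promoter element called the CHR, often near CCAAT boxes that bind NF-Y. Their mRNA in a culture therefore commonly follows how many cells are in G2 and M.

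Because this layout is known for genes of this kind, promoter sequences of 8 members are shown, taken from RefSeq (GRCh38.p14). Each is the 120 bases before a listed transcription start, 5′ to 3′ on the gene's strand. Capitals mark the CHR letters TTTGAA and the CCAAT letters, on either strand (TTCAAA and ATTGG on the other). Where a gene has several listed starts, the one with most matches is printed.
CCNB1, chr5:69167030-69167149, plus strand: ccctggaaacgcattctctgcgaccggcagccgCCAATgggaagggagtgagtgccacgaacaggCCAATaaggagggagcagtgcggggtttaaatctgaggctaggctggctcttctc
CCNB2, chr15:59105026-59105145, plus strand: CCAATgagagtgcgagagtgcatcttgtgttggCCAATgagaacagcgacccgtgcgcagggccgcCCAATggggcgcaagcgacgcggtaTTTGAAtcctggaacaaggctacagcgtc
CDK1, chr10:60778358-60778477, plus strand: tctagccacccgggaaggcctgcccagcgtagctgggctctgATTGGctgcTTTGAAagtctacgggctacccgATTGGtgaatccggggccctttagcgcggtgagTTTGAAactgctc
PLK1, chr16:23678769-23678888, plus strand: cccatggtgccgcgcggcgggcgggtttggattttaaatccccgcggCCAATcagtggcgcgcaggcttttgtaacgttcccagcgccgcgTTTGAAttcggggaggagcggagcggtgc
CCNA2, chr4:121823884-121824003, minus strand: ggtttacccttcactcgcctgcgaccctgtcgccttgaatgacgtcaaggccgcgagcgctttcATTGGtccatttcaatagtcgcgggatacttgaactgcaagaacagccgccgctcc
CENPF, chr1:214603075-214603194, plus strand: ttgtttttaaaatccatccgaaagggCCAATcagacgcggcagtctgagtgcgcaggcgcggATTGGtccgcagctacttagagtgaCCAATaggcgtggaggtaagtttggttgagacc
ZWINT, chr10:56361260-56361379, minus strand: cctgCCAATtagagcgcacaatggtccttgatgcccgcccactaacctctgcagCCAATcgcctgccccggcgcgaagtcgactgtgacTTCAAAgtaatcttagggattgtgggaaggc
PTTG1, chr5:160421735-160421854, plus strand: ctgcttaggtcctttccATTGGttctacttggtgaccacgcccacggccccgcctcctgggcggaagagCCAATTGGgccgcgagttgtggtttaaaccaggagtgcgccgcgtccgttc
CCNB2 held CCAAT at 120, 87 and 54 bases before the start, each 33 bases from the next, and a CHR match at 29 bases. PLK1 also held a CHR match at 29 bases, with CCAAT at 73 bases. CDK1 held CHR letters at 69 and 13 bases and CCAAT letters 32 bases apart. In CCNB1, PTTG1, CENPF and CCNA2 the printed window held CCAAT letters and no TTTGAA. Only these exact letters were searched, so a CHR spelled otherwise would not be marked. In PTTG1 the CCAAT matches of both strands overlap, which gives the longer run of capitals.

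The table held promoters of 29 of the 36 members, with 40 starts. Within the 250 bases before a start, TTTGAA was found at 16 of those 40 (40.0%) and at 13.3% of all 35116 listed starts. CCAAT was found at 31 of 40 (77.5%) and at 32.0% of all. Both stood together at 15 of 40 (37.5%), against 4.7% of all. The E2F letters TTTGGCGC or TTTCCCGC were found at 2 of 40 (5.0%) and 1.9%. Windows of starts of the same gene can overlap, so genes were also counted, at any of their starts. TTTGAA was found for 14 of 29 members (48.3%) and 16.1% of all 27305 genes. For CCAAT it was 25 of 29 (86.2%) and 37.0%, and for both at 1 start 13 of 29 (44.8%) and 5.8%. These are matches of letters in a fixed window, given as a description.

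Median intensities were 133.7 to 142.7 per array, and 22215 probe sets entered the fits. Marker genes of the named cell line set the WT arrays apart from the lines. MYCN read 62.5 to 120.5 there and 4181 to 5947 and 4301 to 6118 in the 2 lines. A floor of 55.9 was taken, the smallest of the 9 lower quartiles. Of 16 measured neuroblastoma and sympathoadrenal markers 11 stayed above it on all WT arrays, and 15 did in each line. TH was under it throughout, and HAND2 and SCG2 on all WT arrays. The summed level of that list was 2723 to 3040 on WT arrays, 12944 to 20999 in 69CHAT and 15455 to 23304 in 82CHAT. The sum of 8 epithelial markers was 5566 to 6306 on WT arrays and 377 to 458 over both lines, where EPCAM, KRT19, CDH1 and DSP were under 55.9 throughout. That of 8 mesenchymal markers was 14096 to 15521 and 4858 to 7991, and that of 6 blood and endothelial markers 443 to 514 and 461 to 638. None of these markers was at 0. The part of these markers in the differences from WT was not tested, and a difference from WT below is a difference from these arrays. In bulk RNA, fewer dividing cells and less RNA per dividing cell cannot be told apart.

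**Figure D1:**
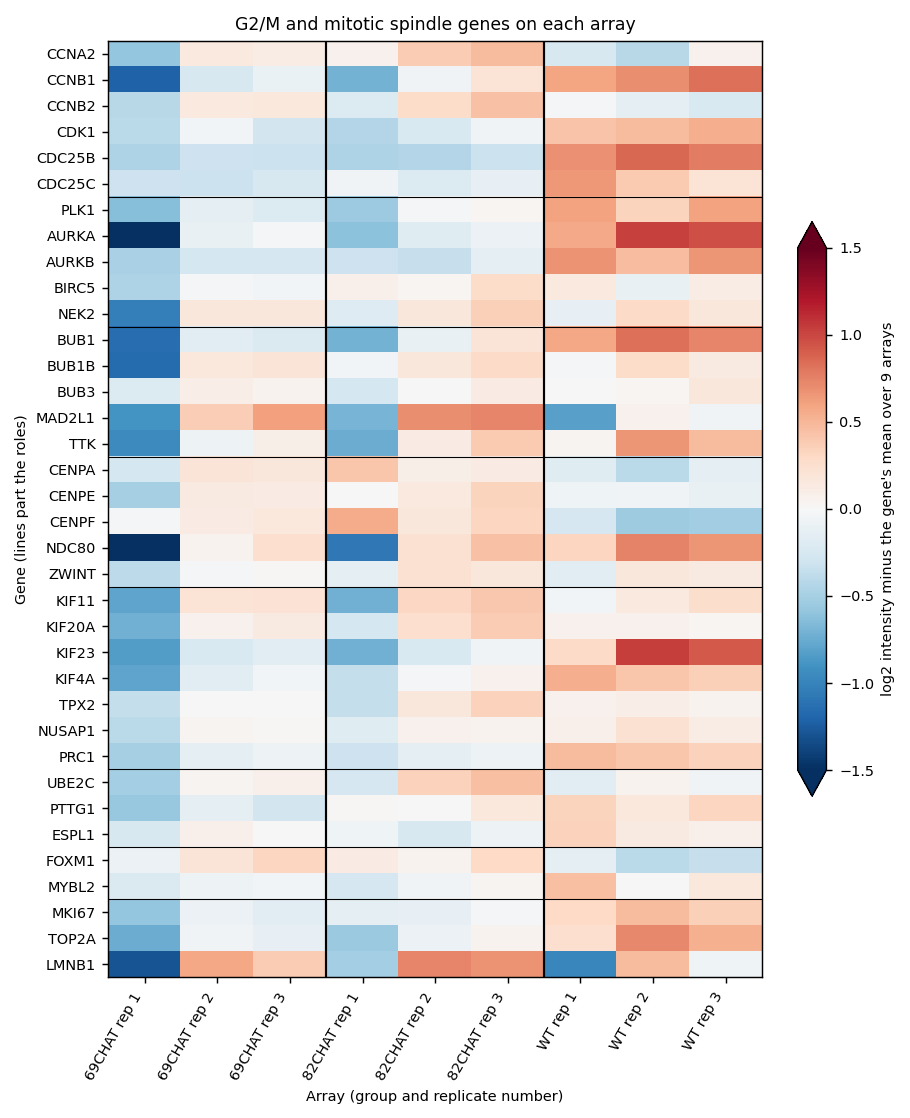
Log2 intensity of each of the 36 genes on each of the 9 arrays, as the difference from that gene's mean over all arrays, with genes ordered by role. Replicate 1 of 69CHAT is below the mean for all 36 genes, and CCNB1, CDC25B, AURKA, BUB1 and KIF23 are above it on all 3 WT arrays.

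Against WT, 69CHAT had lower levels of 14 of the 36 genes and higher levels of 2, CENPF and FOXM1. That is 38.9% lower, where 15.3% of all probe sets tested were called lower and 10.9% higher (limma, adjusted p under 0.05). The lower genes were the cyclin and phosphatase genes CCNB1, CDC25B and CDC25C, the kinase genes CDK1, PLK1, AURKA, AURKB and BUB1, the spindle genes KIF23, KIF4A and PRC1, and PTTG1, MKI67 and TOP2A. The median log2 difference over the 36 was -0.33, against 0.06 over all probe sets and -0.03 over 2229 other probe sets of like brightness (mean log2 of 9.31 to 10.69, the quartiles of the members), of which 20.4% were called lower. The line 82CHAT had 11 lower (30.6%) and 2 higher genes, where 15.7% and 11% of all probe sets were called. Its median was -0.18, against 0.06 over all and -0.04 at like brightness, where 21.0% were called lower. The genes it had lower were CDK1, CDC25B, CDC25C, PLK1, AURKA, AURKB, BUB1, KIF23, PRC1, MKI67 and TOP2A, and the higher ones CENPF and FOXM1. Both comparisons use the same 3 WT arrays, so their likeness is not a second observation. Means were above WT for 7 of the 36 genes in 69CHAT and 14 in 82CHAT, against 60.1% and 60.2% of all probe sets. At like brightness the shares above WT were 48.8% and 47.3%. All arrays of 69CHAT lay below all WT arrays for 19 genes and above them for 2, where 21.2% and 22.5% of all probe sets did. In 82CHAT these were 16 and 4 genes, against 21.3% and 20.9%.

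With the replicate number as a block, 69CHAT had 16 lower and 2 higher genes, and 82CHAT 14 lower and 5 higher. The additional genes were TTK and NDC80 in 69CHAT. In 82CHAT they were CCNB1, KIF4A and TTK as lower and CCNA2, MAD2L1 and LMNB1 as higher. In that fit 19.9% and 20.3% of all probe sets were called lower, and 16.6% and 17.9% higher. In replicates 2 and 3 alone 16 genes were lower and 5 higher in 69CHAT, and 15 and 9 in 82CHAT, with medians of -0.14 and -0.10. There 20.5% and 20.2% of all probe sets were lower, and 18.5% and 19.4% higher. The genes higher in that fit were CCNB2, MAD2L1, CENPA, CENPF and FOXM1 in both lines. CCNA2, CENPE, KIF20A and UBE2C were higher there in 82CHAT alone. Between the single replicate 1 arrays the medians were -0.81 and -0.42. The count of 11 in 82CHAT fell to 5 without WT replicate 3, to 6 without WT replicate 2 or replicate 1 of that line, and to 7 without WT replicate 1 or replicate 2 of 82CHAT. The median of 69CHAT was -0.13 without its replicate 1 and -0.48 without its replicate 3. That of 82CHAT was -0.11 without its replicate 1 and -0.29 without its replicate 3. The count of 14 fell to 9 without WT replicate 2. Without WT replicate 2 or 3, or replicate 2 or 3 of 69CHAT, 0 genes were higher in that line. The count of 2 higher in 82CHAT was 1 without WT replicate 2 or 3 or its own replicate 3, and 4 without replicate 1 of 69CHAT.

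**Figure D2:**
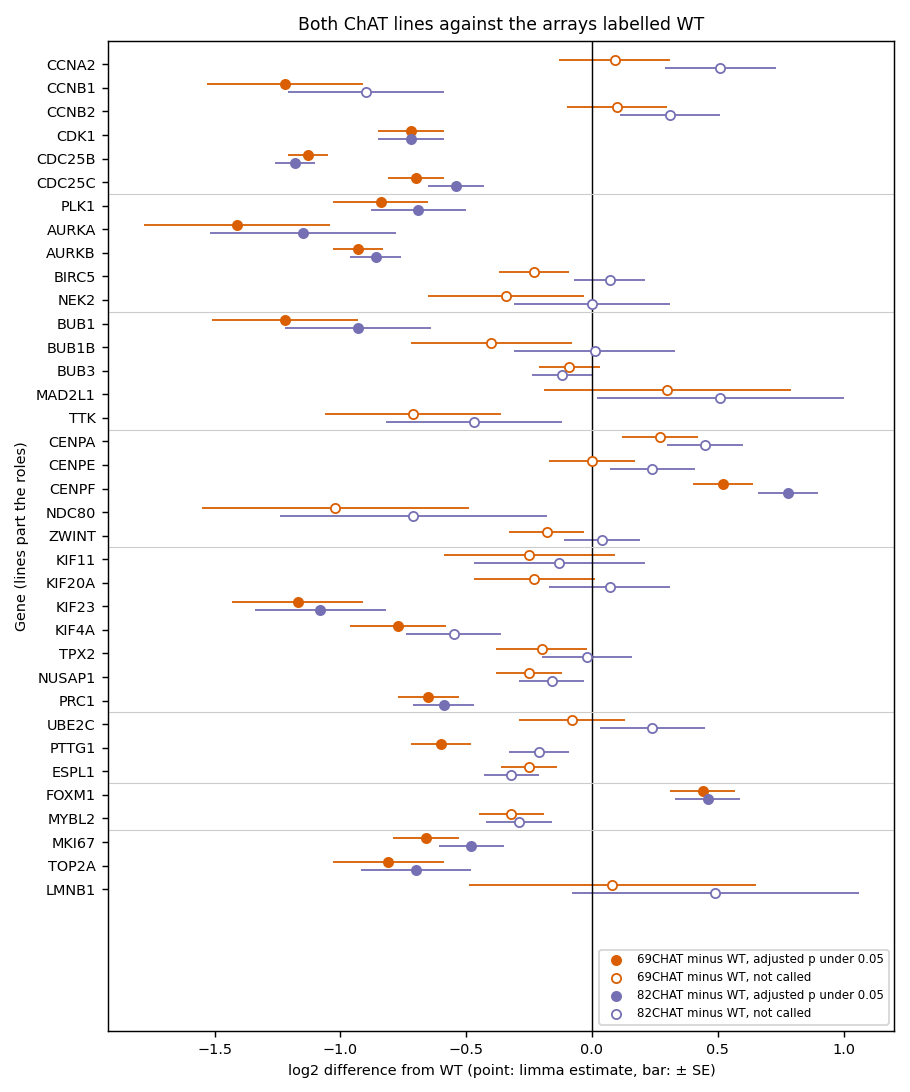
Log2 difference of each line from WT for the 36 genes (limma estimate with its SE, 3 arrays per group), with filled points where the adjusted p passed 0.05. CENPF and FOXM1 are the filled points to the right of 0, and CDC25B has the narrowest bars among the genes furthest to the left.

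Among the cyclin, CDK1 and CDC25 genes, which time mitotic entry, 4 of 6 were lower in 69CHAT and 3 of 6 in 82CHAT. Beside the counts of this role and those below stand 20.4% and 21.0% of probe sets of like brightness, called lower in 69CHAT and 82CHAT. CDK1, the kinase that starts mitosis, read 1268, 1631 and 1383.5 on the arrays of 69CHAT, in replicate order here and below. It read 1236, 1440.4 and 1626 in 82CHAT and 2266, 2334 and 2443 in WT. All 6 arrays of the lines lay below all 3 of WT. CDK1 was 1.65-fold lower in 69CHAT (log2 difference -0.72, SE 0.13, limma adjusted p = 0.0026) and 1.65-fold lower in 82CHAT (adjusted p = 0.0027). Its 2 dimmer probe sets gave -0.85 and -0.68 in 69CHAT, the first with an adjusted p of 0.22.

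CDC25B, a phosphatase that activates CDK1, had the smallest SE of the 36 genes. It read 1030.4, 1148 and 1141 in 69CHAT, 1032.5, 1050.2 and 1136 in 82CHAT and 2282, 2574 and 2419.9 in WT. The line arrays reached at most 1148, and the WT arrays began at 2282. The log2 differences were -1.13 (SE 0.08, limma adjusted p = 2.1e-05) and -1.18 (SE 0.08, 1.7e-05). CDC25C, another member of that family, read 278, 276 and 292 in 69CHAT, 332, 298 and 315 in 82CHAT and 538, 450.4 and 398 in WT. The groups did not overlap, with log2 differences of -0.70 (limma adjusted p = 0.0017) and -0.54 (0.0066). Neither CDC25C difference passed when its 3 probe sets were averaged (adjusted p = 0.19 and 0.38), and one dimmer probe set had the opposite sign in both lines.

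The cyclins differed from one another. CCNB1, cyclin B1, read 428, 840.5 and 931 in 69CHAT, 607, 957.5 and 1142 in 82CHAT and 1499, 1618 and 1765 in WT. Every WT array was above every array of the lines, and replicate 1 was the lowest of each line. Its log2 difference was -1.22 in 69CHAT (SE 0.31, limma adjusted p = 0.019), a call lost without WT replicate 2 (0.0555) or 3 (0.066). In 82CHAT it was -0.90 (adjusted p = 0.067, and 0.0061 with the replicate block). CCNB2, cyclin B2, read 1228.5 to 1822.5 in 69CHAT, 1425 to 2212 in 82CHAT and 1401 to 1604 in WT, so the groups overlapped. In replicates 2 and 3 alone CCNB2 was higher in both lines (limma adjusted p = 0.012 and 0.0015). CCNA2, cyclin A2, read 582 to 963, 909.7 to 1208 and 652 to 909.7 in the same order. Its difference in 82CHAT was 0.51 (limma adjusted p = 0.13, 0.038 with the block and 0.018 in replicates 2 and 3 alone).

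Of the 5 genes of mitotic kinases and of the chromosomal passenger complex, PLK1, AURKA and AURKB were lower in each line. PLK1, a kinase of mitotic entry and spindle assembly, read 360.1, 508 and 488 in 69CHAT, 384, 554 and 575 in 82CHAT and 854, 708 and 852 in WT. No line array reached the lowest WT array. The log2 differences were -0.84 (SE 0.19, limma adjusted p = 0.0095) and -0.69 (SE 0.19, 0.024). The latter call was lost without replicate 1 of 82CHAT (0.0509), WT replicate 1 (0.077) or WT replicate 3 (0.081).

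AURKA, the Aurora kinase of the centrosome and spindle poles, read 277, 734 and 782 in 69CHAT, 518, 702 and 747 in 82CHAT and 1181, 1621 and 1555 in WT. Replicate 1 was the lowest array of every group, and the value of 277 stood far below the other arrays of 69CHAT. AURKA was 2.66-fold lower in 69CHAT (limma adjusted p = 0.021) and 2.22-fold lower in 82CHAT (0.0483). The first call was lost without WT replicate 2 (0.072) or 3 (0.069). The second was lost without any one array of WT or of 82CHAT, or replicate 2 of 69CHAT (adjusted p from 0.0537 to 0.14), and with median centring (0.068) or a pseudocount of 16 (0.0542). A dimmer AURKA probe set gave -1.08 and -0.92, with adjusted p of 0.0039 and 0.0093.

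AURKB, the Aurora kinase of the passenger complex, read 498, 582 and 588 in 69CHAT, 563, 550.0 and 631.5 in 82CHAT and 1109, 964 and 1102 in WT. The lines lay close together and apart from WT, with log2 differences of -0.93 (limma adjusted p = 2.1e-04) and -0.86 (3.2e-04). BIRC5, survivin, a partner of AURKB in that complex, read 1660.2 to 2252, 2329.7 to 2776 and 2116 to 2542, with differences of -0.23 and 0.07 (adjusted p = 0.29 and 0.72). NEK2, a centrosome kinase, read 271 to 620.3, 481 to 707 and 505 to 669.9, and neither difference passed.

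**Figure D3:**
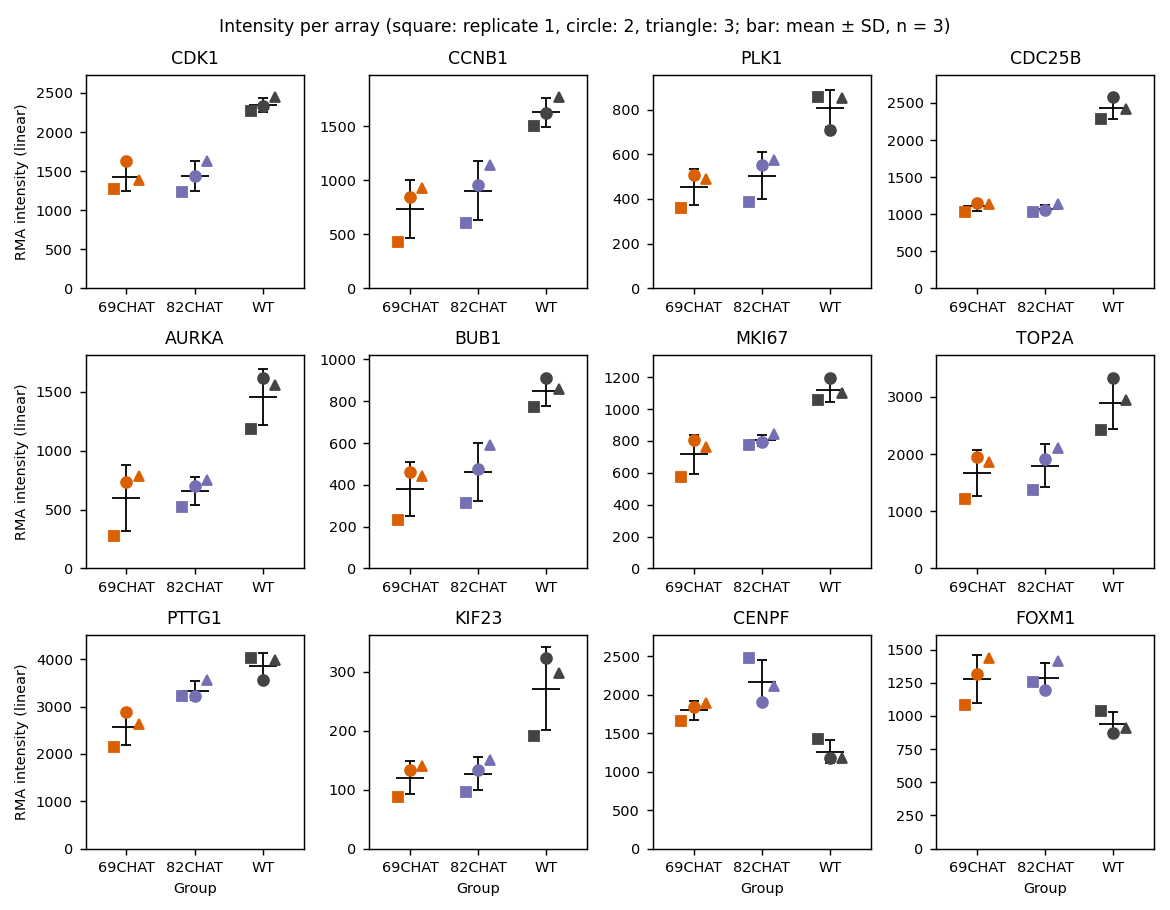
Deposited RMA intensity on a linear scale for 12 members, with 1 point per array (square, circle and triangle for replicates 1, 2 and 3) and the mean ± SD of 3 arrays. In CDC25B both lines part cleanly from WT, in AURKA and CCNB1 replicate 1 of each line sits lowest, and CENPF and FOXM1 are the panels where WT is lowest.

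Of the 5 spindle checkpoint genes only BUB1 passed in either line over all arrays without the block. BUB1, a kinase of the unattached kinetochore, read 233, 463 and 444 in 69CHAT, 314, 477 and 591 in 82CHAT and 773, 913 and 860.0 in WT. All line arrays were below all WT arrays. The log2 differences were -1.22 (SE 0.29, limma adjusted p = 0.015) and -0.93 (SE 0.29, 0.0479). The first was lost without WT replicate 2 (0.0525). The second was lost without any one array except replicate 1 of 69CHAT and replicate 3 of 82CHAT (adjusted p from 0.0536 to 0.13), and with median centring (0.071) or a pseudocount of 16 (0.0530). Averaged over its probe sets it had an adjusted p of 0.25. Of 4 dimmer BUB1 probe sets 3 had the opposite sign in each line, none of them called.

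TTK, the kinase also called MPS1, read 384, 703.5 and 788 in 69CHAT, 445, 809.5 and 980.0 in 82CHAT and 766, 1178 and 1031 in WT. Replicate 1 of WT fell inside the range of the lines, and the differences of -0.71 and -0.47 passed with the replicate block (limma adjusted p = 0.0057 and 0.031) and not over all arrays without it (0.19 and 0.37). In replicates 2 and 3 alone they gave 0.0096 and 0.088. MAD2L1, the checkpoint's soluble inhibitor of the anaphase-promoting complex, read 717.5, 1724 and 2053 in 69CHAT, 822, 2158 and 2211 in 82CHAT and 758, 1394 and 1286.5 in WT. Its replicate 1 values of 718 to 822 were alike in the groups, while replicates 2 and 3 were higher in the lines than in WT. The difference in 82CHAT was 0.51 (adjusted p = 0.48, and 0.030 with the block). In replicates 2 and 3 alone MAD2L1 passed in both lines (0.0074 and 0.0015). BUB1B, which binds CDC20 with MAD2L1, ranged from 470 to 1269 over all arrays, and BUB3 from 2438 to 3309.7. Neither of these probe sets passed in either line in any of these fits. A dimmer BUB3 probe set was higher in both lines in replicates 2 and 3 alone (limma adjusted p = 0.018 and 0.023), as was another (0.025 and 0.0058). A further BUB3 probe set did not pass there (0.88 and 0.90).

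The genes of the centromere and kinetochore held 1 of the 2 higher genes. CENPF, a large kinetochore and nuclear matrix protein made in G2, read 1663, 1845 and 1895 in 69CHAT, 2484, 1911 and 2111 in 82CHAT and 1428, 1173 and 1183 in WT. Every line array was above every WT array, and replicate 1 of 82CHAT was the highest. The log2 differences were 0.52 (SE 0.12, limma adjusted p = 0.013) and 0.78 (SE 0.12, 0.0016). The first was just lost without WT replicate 2 or 3 or replicate 2 or 3 of 69CHAT (adjusted p from 0.0510 to 0.0529), and after quantile normalization (0.058). A dimmer CENPF probe set gave 0.49 (adjusted p = 0.11) and 0.64 (0.042), and another, at 19.5 to 23.3, gave -0.07 and 0.04.

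NDC80, which links kinetochores to microtubules, read 115, 370.5 and 424.5 in 69CHAT, 169, 417 and 485 in 82CHAT and 446.5, 599 and 564 in WT. Its replicate 1 values in the lines were far below the others, and its SE of 0.53 was among the widest of the set. The difference of -1.02 in 69CHAT had an adjusted p of 0.21, and of 0.024 with the block. In replicates 2 and 3 alone NDC80 passed in both lines (0.0057 and 0.029). CENPA, the centromeric histone, read 347 to 474, 441 to 555 and 313 to 380.2, and its difference of 0.45 in 82CHAT missed the threshold (limma adjusted p = 0.057). CENPA was higher in both lines in replicates 2 and 3 alone (0.011 and 0.023). CENPE, a kinetochore motor, and ZWINT, a kinetochore scaffold protein, differed by 0.24 and 0.04 in 82CHAT, with adjusted p of 0.35 and 0.85. CENPE was higher in 82CHAT in replicates 2 and 3 alone (limma adjusted p = 0.018).

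Among 7 kinesins and spindle proteins, 3 were lower in 69CHAT (42.9%) and 2 in 82CHAT (28.6%), beside 20.4% and 21.0% at like brightness. KIF23, a motor of the central spindle and cytokinesis, read 87.8, 134 and 139 in 69CHAT, 95.7, 134 and 151 in 82CHAT and 191, 324 and 298 in WT. All arrays of the lines lay below all 3 of WT, and replicate 1 was the lowest of each group. The log2 differences were -1.17 (SE 0.26, limma adjusted p = 0.010) and -1.08 (SE 0.26, 0.015), the second lost without WT replicate 2 (0.059) or 3 (0.056). PRC1, the microtubule bundler of that central spindle, read 1614, 2090.1 and 2166 in 69CHAT, 1838, 2085 and 2166 in 82CHAT and 3181, 3053 and 2909 in WT. It was 1.57-fold lower in 69CHAT (limma adjusted p = 0.0043) and 1.5-fold lower in 82CHAT (0.0073), and no line array reached a WT array.

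KIF4A, which works with PRC1, read 364, 564 and 610.1 in 69CHAT, 492, 616 and 657 in 82CHAT and 915.5, 841 and 805 in WT. The lines again lay below WT throughout. Its difference of -0.77 in 69CHAT passed (limma adjusted p = 0.018) and was lost without WT replicate 1 (0.062) or 2 (0.0508). That of -0.55 in 82CHAT missed the threshold over all arrays (0.071) and passed with the block (0.037) and in replicates 2 and 3 alone (0.0072). The motor genes KIF11 (bipolar spindle) and KIF20A (cytokinesis) and the spindle genes TPX2 and NUSAP1 differed by -0.25 to 0.07 in the lines. None passed over all arrays, with or without the block. KIF20A was higher in 82CHAT in replicates 2 and 3 alone (limma adjusted p = 0.026). The values of TPX2 and NUSAP1 in 69CHAT lay below all WT arrays.

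Of the genes of cyclin degradation and chromatid separation, PTTG1 was lower in 69CHAT. PTTG1, securin, the inhibitor of separase, read 2151, 2883 and 2641 in 69CHAT, 3229, 3220.4 and 3562 in 82CHAT and 4033, 3568 and 3992.5 in WT. The line 82CHAT stood between the others and overlapped neither. Its log2 differences were -0.60 (SE 0.12, limma adjusted p = 0.0048) and -0.21 (0.23). Its probe set has the suffix _x_at, given to probes that can match other transcripts, and PTTG1 has close relatives, so the value is uncertain in that respect. The same suffix applies to BUB3, CENPA and FOXM1. UBE2C, the ubiquitin-conjugating enzyme of the anaphase-promoting complex, ranged from 1291.5 to 2509.7 and ESPL1, separase, from 1135 to 1707. Neither passed over all arrays, with ESPL1 at -0.32 in 82CHAT (adjusted p = 0.068). In replicates 2 and 3 alone UBE2C was higher (limma adjusted p = 0.0049) and ESPL1 lower (0.034) in 82CHAT.

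FOXM1, the transcription factor that activates many of these genes, was higher in both lines. It read 1084, 1316.5 and 1439.9 in 69CHAT, 1253, 1199 and 1415 in 82CHAT and 1040.4, 869 and 909.7 in WT. All arrays of the lines lay above all 3 of WT, although replicate 1 of WT and of 69CHAT were close. The log2 differences were 0.44 (SE 0.13, limma adjusted p = 0.031) and 0.46 (SE 0.13, 0.026). The first was lost without WT replicate 2 or 3 or replicate 2 or 3 of 69CHAT (adjusted p from 0.095 to 0.11) and with median centring (0.0513) or a trended robust variance (0.0521). The second was lost without WT replicate 2 (0.094), WT replicate 3 (0.082) or replicate 3 of 82CHAT (0.086). MYBL2, B-MYB, read 849 to 961, 827 to 1018 and 989.8 to 1350.2, with differences of -0.32 and -0.29 that did not pass (limma adjusted p = 0.12 and 0.14).

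The proliferation marker gene MKI67, which encodes Ki-67, read 576, 806.5 and 763 in 69CHAT, 777, 790.1 and 841 in 82CHAT and 1058, 1197 and 1098 in WT. It was 1.58-fold lower in 69CHAT (limma adjusted p = 0.0048) and 1.39-fold lower in 82CHAT (0.023). The second call was lost without WT replicate 2 (0.084) or 3 (0.059) or replicate 1 (0.0542) or 2 (0.072) of 82CHAT. All 4 MKI67 probe sets had negative differences in both lines, from -1.25 to -0.16. TOP2A, topoisomerase II alpha, which untangles chromosomes, read 1208, 1948 and 1853 in 69CHAT, 1377, 1912 and 2101 in 82CHAT and 2416, 3336 and 2936.5 in WT. Replicate 1 was the lowest of each group, and no line array reached a WT array.

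The TOP2A differences were -0.81 (SE 0.22, limma adjusted p = 0.027) and -0.70 (SE 0.22, 0.0495). The first was lost without WT replicate 2 (0.098), WT replicate 3 (0.079) or replicate 1 of 69CHAT (0.062). The second was lost without any one of 7 arrays, all but replicate 1 of 69CHAT and replicate 3 of 82CHAT (adjusted p from 0.0523 to 0.16), and with median centring (0.079), a pseudocount of 16 (0.056), its probe sets averaged (0.0554) or a trended robust variance (0.0503). With the block both were firmer (5.4e-04 and 0.0011). LMNB1, lamin B1 of the nuclear envelope, read 259, 952.5 and 832 in 69CHAT, 448, 1055 and 1016 in 82CHAT and 324, 888 and 607 in WT. Its spread within groups was the widest of the set (SE 0.57), and its difference of 0.49 in 82CHAT passed with the block (0.0463), not over all arrays without it (0.57) or in replicates 2 and 3 alone (0.064).

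Between the lines, no gene of the 36 passed, and 0 of all 22215 probe sets did (limma with Benjamini-Hochberg adjustment). At an unadjusted p under 0.05 there were 733 probe sets (3.30%) and 1 member, PTTG1. In replicates 2 and 3 alone 218 probe sets were higher and 236 lower (0.981% and 1.06%), among them 0 members. Although none passed, 33 of the 36 genes had a higher mean in 82CHAT, where 51.5% of all probe sets and 49.1% of those of like brightness did. The median difference was 0.21, against 0.00 over all probe sets.

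That direction rested in part on 1 array. Between the replicate 1 arrays 32 of 36 genes were higher in 82CHAT (median 0.25, against 50.7% and 0.00 over all probe sets). In replicates 2 and 3 it was 29 of 36 (median 0.11, against 51.4% and 0.00, and 56.2% at like brightness). Without replicate 1 of 69CHAT the median became -0.03, and without replicate 3 of 82CHAT 0.09. Without replicate 1 of 82CHAT it was 0.34.

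PTTG1 had the smallest unadjusted p of the members, with a log2 difference of 0.39 (95% interval 0.13 to 0.66 for this gene alone, limma unadjusted p = 0.0090, adjusted p = 1.0). CDC25C, BIRC5, CENPF and PTTG1 were the 4 genes with every array of 82CHAT above every array of 69CHAT, and 0 were wholly lower, against 3.18% and 3.66% of all probe sets. CENPF differed by 0.26 (-0.02 to 0.54) and BIRC5 by 0.30 (-0.01 to 0.62). The intervals bound how far the lines could differ. For CDK1 it was -0.28 to 0.29, for CDC25B -0.24 to 0.15, and for FOXM1 -0.27 to 0.30. For AURKA (-0.58 to 1.10), BUB1B (-0.33 to 1.13), NDC80 (-0.91 to 1.52) and LMNB1 (-0.90 to 1.72) it allowed differences of more than 1 on the log2 scale. It also did for MAD2L1 (-0.92 to 1.34), NEK2 (-0.37 to 1.05), CCNB1 (-0.38 to 1.04) and TTK (-0.55 to 1.04).

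**Figure D4:**
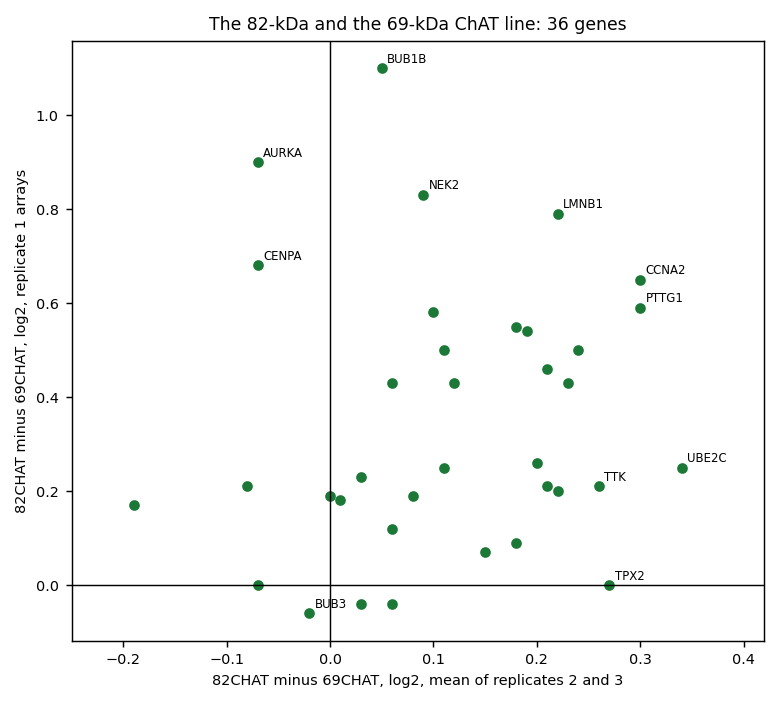
Log2 difference between 82CHAT and 69CHAT for 36 genes, in the mean of replicates 2 and 3 (horizontal axis) and between the single replicate 1 arrays (vertical axis). Most points lie above 0 on both axes, and BUB1B, AURKA and NEK2 differ far more between the replicate 1 arrays (1.10, 0.90 and 0.83) than in replicates 2 and 3 (0.05, -0.07 and 0.09).

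Replicate 1 of the groups stood apart from replicates 2 and 3 in these genes. With the group as a covariate, 18 of 36 were lower on replicate 1 and 0 higher, where 14.6% of all probe sets were called lower and 17.2% higher (limma adjusted p under 0.05). Other bright probe sets also had lower values there. Among the 2229 probe sets of like brightness 40.6% were called lower and 2.69% higher, with a median of -0.22, against -0.31 for the members. After quantile normalization of the deposited values 10 members were lower and 2 higher, and the median shrank to -0.10. The sign of 12 members turned from below to above 0, among them BUB3 and NUSAP1, which had been called (to 0.05 and 0.03).

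The members with the widest gap, as the log2 level on replicate 1 minus that on the others, were LMNB1 (-1.39, limma adjusted p = 0.0013), MAD2L1 (-1.21, 0.0012) and NDC80 (-1.19, 0.0072). TTK (-0.83), AURKA (-0.79), KIF11 (-0.77), NEK2 (-0.67) and CCNB1 (-0.67) followed, all called. All 5 checkpoint genes were lower on replicate 1, and 5 of the 7 kinesins and spindle proteins, beside 40.6% of probe sets of like brightness. In contrast CDC25B (-0.12), AURKB (-0.06), FOXM1 (-0.06), MYBL2 (-0.01) and CENPA (-0.01) did not pass, and CENPF, CDC25C and ESPL1 had values above 0. The count of 18 was 12 to 25 when 1 array was left out, 12 without replicate 1 of either line and 25 without WT replicate 1. The calls of BUB3 and TPX2 were lost without any of 7 single arrays, those of KIF20A and NUSAP1 without any array of the lines, and that of BUB1B without any of 5 (adjusted p from 0.0536 to 0.20). Those of CCNB1 and BUB1 were lost without replicate 1 of either line (0.0512 to 0.060). After quantile normalization the calls of BUB1B, BUB3, KIF20A, NUSAP1, TPX2, TOP2A, UBE2C and ZWINT were lost (limma adjusted p from 0.0505 to 0.83).

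Within a group the gap sets 1 array against 2, so it is given per group as a description of those arrays. On replicate 1 of 69CHAT all 36 genes were below the mean of replicates 2 and 3 (median -0.51), and 35 were the lowest of the 3 arrays, where 37.3% of all probe sets were. In 82CHAT 32 were below (median -0.35) and 28 lowest (37.7% of all), and in WT 21 (median -0.08) and 19 (32.4%). Probe sets of like brightness had medians of -0.25, -0.32 and -0.12 in 69CHAT, 82CHAT and WT, and 76.1%, 81.2% and 70.1% of them were below 0. Their share with replicate 1 lowest was not counted. The members' median was thus below that of like probe sets in 69CHAT and close to it in the other groups. With the spread taken from replicates 2 and 3, 25 members were called lower and 0 higher in 69CHAT (14.6% and 13.9% of all probe sets), 19 and 1 in 82CHAT (16.8% and 16%), and 4 and 0 in WT (3.93% and 3.05%).

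The difference of the gaps between groups was fitted after these values had been seen, as an interaction in limma over all probe sets. It passed for 8 members between 69CHAT and WT, each with a deeper gap in the line, where 2.07% of all probe sets were called in that direction and 1.42% in the other. NDC80 (-1.78 in the line and -0.38 in WT, adjusted p = 0.017), BUB1B (-1.32 and -0.24, 0.016) and AURKA (-1.45 and -0.43, 0.014) had the widest. It passed for 3 between 82CHAT and WT (2.71% of all, and 1.77% the other way), namely CCNB2, NDC80 and KIF11. Between the lines it passed for AURKA, BUB1B and NEK2, each with a shallower gap in 82CHAT (2.13% of all, and 2.98% the other way). Its spread comes from replicate 2 against 3 alone, and each gap rests on 1 array, so these p-values compare arrays and do not show that the groups differ.

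Other measures differed between replicate 1 and the rest. The spiked bioD control (its 5' probe set) gave 761 to 1033 on replicate 1 and 1529.9 to 2308 on replicates 2 and 3. ACTB had a 3'/5' ratio of 0.703 and 0.709 on replicate 1 of 69CHAT and 82CHAT, and of 0.831 to 1.08 elsewhere. The GAPDH ratio was 0.950 to 1.06 throughout. Their part in the gap was not tested. The sources used here name no day or batch for a replicate number.

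**Figure D5:**
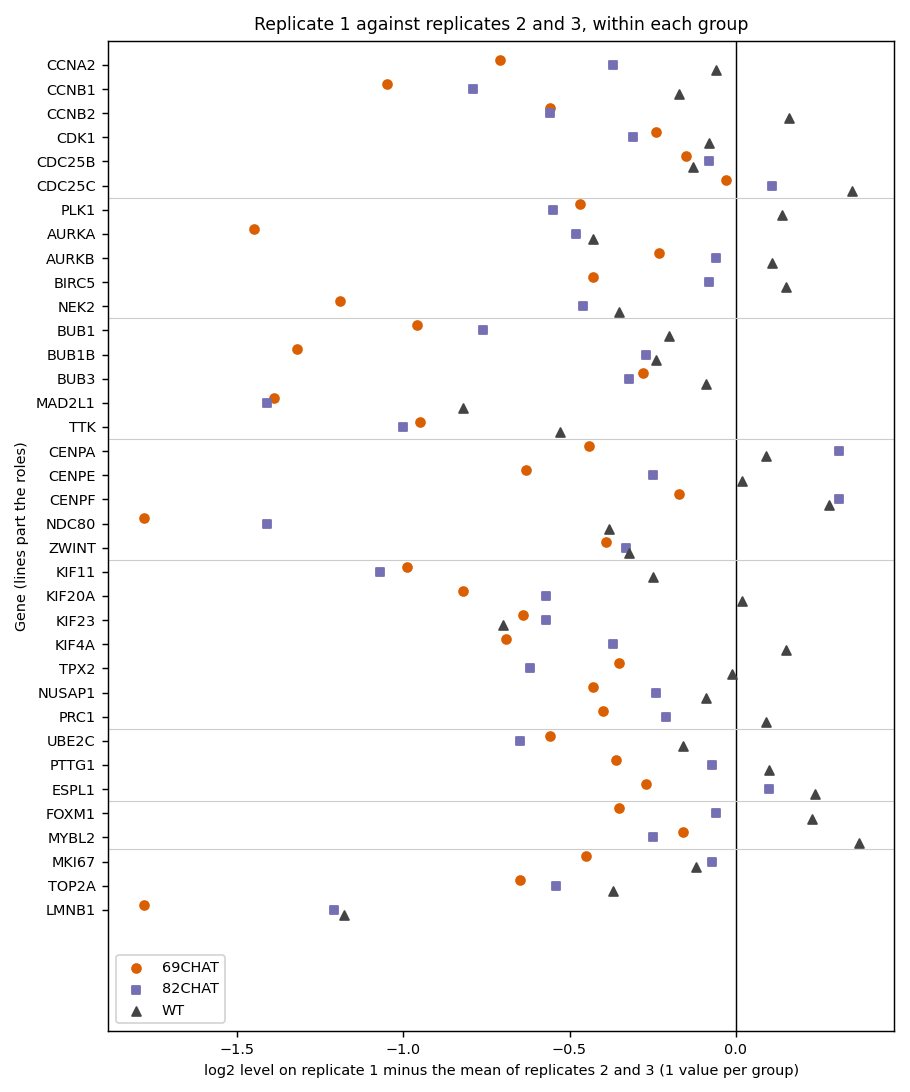
Log2 level on the replicate 1 array minus the mean of replicates 2 and 3, for each of 36 genes and each group (1 value per group). The circles of 69CHAT lie below 0 for every gene, down to -1.78 for NDC80 and LMNB1, while 15 of the WT triangles lie above 0.

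Other lists of cell cycle genes were read on the same arrays. Of 51 other measured G2/M genes 15 were lower and 1 higher in 69CHAT, and 12 lower and 4 higher in 82CHAT (medians -0.29 and -0.18). The lower shares of 29.4% and 23.5% stand beside 20.4% and 21.0% at like brightness. KIF15, a spindle motor, was 2.62-fold and 2.78-fold higher (limma adjusted p = 9.6e-05 and 6.8e-05). CENPN, a centromere protein, was 3.13-fold and 2.89-fold lower (0.0013 and 0.0019). CDC20, which activates the anaphase-promoting complex, differed by -2.31 on the log2 scale in 69CHAT (0.0015), and CENPM, another centromere protein, by -0.59 in 82CHAT (0.0023). Here and in the next lists a gene given for 1 line was named by its rank in that comparison, not as particular to that line. Over all arrays 0 genes of these lists passed between the lines. In replicates 2 and 3 alone, 82CHAT had 3 other G2/M genes and 1 G1/S gene higher than 69CHAT (0.981% of all probe sets).

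Of 42 genes of G1/S and DNA replication 11 were lower and 7 higher in 69CHAT, and 9 and 9 in 82CHAT (medians -0.22 and -0.09). In 69CHAT 26.2% were lower and 16.7% higher, beside 20.4% and 18% of all probe sets at the brightness of the members. In 82CHAT 21.4% were lower and 21.4% higher, beside 21.0% and 18.7% of those probe sets. CCND2, cyclin D2, read 30.3 to 37.2 and 28.5 to 34.1 in the lines and 574 to 773 in WT, under the floor of 55.9 on every array of the lines. CCNE1, cyclin E1, differed by -1.40 and -1.43 (limma adjusted p = 1.3e-05 and 1.1e-05). GINS2, of the replicative helicase, differed by -1.65 in 69CHAT (4.8e-05), and CDC45 of that helicase by -0.84 in 82CHAT (7.6e-05). Of 11 inhibitors of the cell cycle 3 were lower and 2 higher in 69CHAT (27.3% and 18.2%), and 4 and 2 in 82CHAT (36.4% and 18.2%). The shares of probe sets at the brightness of the members are those just given. CDKN2A differed by -2.77 and -2.68 (2.8e-06 and 3.4e-06), CDKN1A (p21) by -1.94 and -2.14. GADD45A, a damage response gene, was higher by 0.84 in 69CHAT (0.0014), and CDKN2B, a CDK4 and CDK6 inhibitor, differed by -0.49 in 82CHAT (0.014).

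On replicate 1, 23 of the 51 other G2/M genes and 15 of the 42 G1/S genes were lower and 0 and 1 higher (medians -0.39 and -0.21). The lower shares of 45.1% and 35.7% lie around the 40.6% of probe sets at the brightness of the 36 members, which was not matched to these lists. FBXO5, an inhibitor of the anaphase-promoting complex, CKAP2 and SPC25, of the spindle and kinetochore, had the smallest adjusted p among the former (-0.79, -0.90 and -0.81). PCNA, the sliding clamp of replication, UNG and CCND1 did so among the latter (-0.87, -1.01 and -1.01, limma adjusted p = 8.5e-04, 0.0011 and 0.0022). Of the 11 inhibitors 6 (54.5%) were lower on replicate 1, beside that 40.6%. RB1 (-1.26), CDKN1B (-0.80) and BTG1 (-0.47) had the smallest adjusted p among them.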

How the data were processed

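RNA of 9 samples was measured on 1-colour oligonucleotide arrays. The authors made the deposited intensity values with RMA, per the submitters' processing notes. No software version is given in the sources used here. Values run from 14.9 to 21486 and were taken as linear, although RMA itself ends in log2 units. Of 22283 probe sets 68 AFFX controls were set aside. The platform annotation pairs 19065 of the rest with 1 symbol, 1043 with several and 2107 with none.

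Groups and replicate numbers come from the sample titles. Log2 values were fitted with limma 3.58.1 in R 4.3.3 (3 group means, all 9 arrays, 2-sided tests), and p-values were adjusted by Benjamini-Hochberg over 22215 probe sets with a threshold of 0.05. The fit was tested on simulated data. Replicate 1 was compared with replicates 2 and 3 with the group as a covariate. Deviations of same-numbered arrays from their group means correlated at 0.28 to 0.57 in all 9 pairs, so the number was also used as a block. Arrays numbered 2 and 3 of different groups correlated at 0.21 to 0.48, and replicate 1 with those at -0.59 to -0.28, so the numbers mainly part replicate 1 from the rest. Members, lists and tests were chosen with earlier results of these data known. Genes were named by rule: members called in any contrast between groups, and CDK1, CCNB1, PLK1, MKI67 and TOP2A, with all array values; from other cell cycle lists up to 3 called genes per contrast, and CDKN1A and MYCN. Promoters shown are those of CCNB1, CCNB2, CDK1, PLK1 and up to 6 members with the smallest p between the lines, where adjusted values tied. The number of arrays limits the precision. The p-values set each difference against the spread between arrays within these groups. The number of clones is not given, so the spread between separately made lines cannot be judged.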

Additional observations from a re-analysis of the deposited data

Results flagged for a closer look

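The gap of replicate 1 to replicates 2 and 3 gave 14 differences between groups in single genes with an adjusted p under 0.05, by an interaction in limma chosen after the data were seen. Taking the gap of 69CHAT minus that of WT, the log2 difference was -1.40 for NDC80, -1.09 for BUB1B, -1.03 for AURKA, -0.84 for NEK2, KIF20A and KIF4A, -0.75 for KIF11 and -0.72 for CCNB2. For 82CHAT minus WT it was -1.03 for NDC80, -0.83 for KIF11 and -0.72 for CCNB2. For 82CHAT minus 69CHAT it was 1.05 for BUB1B, 0.97 for AURKA and 0.73 for NEK2. Each gap rests on a single replicate 1 array and the error on replicate 2 against 3 alone, so these values compare arrays and do not show that the groups differ. What sets the gaps was not tested.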

How the results depend on the processing

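Counts below are of the 36 genes unless probe sets are named. Against WT, the 2 higher genes of 69CHAT became 1 with median centring, quantile normalization or a trended robust variance, 4 with array weights, 0 at a threshold of 0.01 and 5 in replicates 2 and 3. Its 14 lower genes became 8 at 0.01. The 2 higher genes of 82CHAT became 4 with quantile normalization, 8 with weights, 1 at 0.01, 5 with the replicate block and 9 in replicates 2 and 3, and its 11 lower genes 5 at 0.01. Between the lines array weights gave 1 higher gene, UBE2C, 1 lower, ESPL1, and 1704 probe sets, and replicates 2 and 3 gave 454 probe sets. On replicate 1, quantile normalization gave 10 lower and 2 higher genes and a median of -0.10 in place of -0.31, and changed the sign of 12 members, among them BUB3 (0.05) and NUSAP1 (0.03), which had been called. There probe sets averaged per gene gave 1 higher, and 0.01 left 9 lower. Probe sets called in 69CHAT, in 82CHAT and on replicate 1 were 5818, 5948 and 7062. They became 3593, 3708 and 4055 with 1 per gene, 3592, 3703 and 4059 averaged per gene, 9551, 9506 and 2774 with weights, and 3871, 3813 and 2616 at 0.01. With 1 array left out the higher and lower genes ranged over 0 to 3 and 9 to 14 in 69CHAT and 1 to 4 and 5 to 14 in 82CHAT. Between the lines 0 to 36 probe sets passed. On replicate 1 higher genes numbered 0 to 1 and probe sets 4411 to 7690. The gene-by-gene weights, used because limma's default weights had not converged, and the replicate 1 interaction were chosen after the data were seen. Same-numbered arrays pair by the rule used, and beside the calls named in the report the block changed no other call of a member against WT. The cause of these moves was not tested, except that fewer rows or a stricter threshold give fewer calls. All 36 genes stood above the floor of 55.9 on every array.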

Other observations

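Some values recur exactly on several arrays. NEK2 is listed at 620.3 on 4 arrays, replicates 2 and 3 of 69CHAT, replicate 2 of 82CHAT and replicate 3 of WT. KIF20A is listed at 695.4 on 3 arrays, 2 of WT and 1 of 69CHAT, and PRC1 and CCNA2 each repeat a value on 2 arrays of different groups (2166 and 909.7). Over all probe sets 7612 (34.3%) hold a value shared by at least 2 arrays at the deposited precision, and 616 (2.77%) one shared by at least 4. Tied values within a group lower its spread, as between replicates 2 and 3 of 69CHAT for NEK2.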
